A study of Mus musculus with 2 samples.

Results

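A set of 9 leukocyte adhesion genes was followed across gingival cells sorted for CD11b: the integrin subunits Itgam, Itgal, Itgax, Itga4, Itgb1, Itgb2 and Itgb7, the selectin ligand Selplg and the integrin ligand Icam1. They were chosen by name, and all 9 are among the 32285 genes listed for both libraries. Their levels were read in cells with at least 500 unique molecular identifiers (UMIs, counted transcript molecules), at least 250 genes and at most 10% mitochondrial UMIs, by cell class and by library. Itgam encodes CD11b itself, so its transcript reads out the sort.

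Leukocytes leave blood in steps. Selectins on the vessel wall catch PSGL-1, the product of Selplg, and let cells roll; integrins, each a pair of an α and a β chain, then bind ligands such as ICAM-1 and VCAM-1 and hold the cell. The β2 chain (Itgb2, CD18) pairs with αL (Itgal, LFA-1), αM (Itgam, Mac-1) and αX (Itgax, CD11c), while the α4 chain (Itga4) pairs with β1 (Itgb1, VLA-4) or with β7 (Itgb7, the receptor for the gut addressin MAdCAM-1). Inherited loss of the β2 chain in people causes a leukocyte adhesion deficiency in which neutrophils fail to enter the gum and severe periodontitis follows.

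The tissue was gingiva of mice with ligature-induced periodontitis, in which a thread tied around a tooth inflames the gum, kept for 5 days and started 12 weeks after bone marrow transplantation (BMT). The groups were 10% Tet2-/- BMT and 10% Tet2+/+ BMT, with 1 single-cell library each. Tet2 makes a dioxygenase that turns methylcytosine into hydroxymethylcytosine, and 10% names the mutant or matched wild-type share of the transplant. Age, sex, number of pooled mice and the genotype of the other marrow cells are details the sources used here do not give, and no file marks which cells descend from the 10% share. The sort was for CD45.2+CD11b+ cells from 10% Tet2-/- BMT and for CD45+CD11b+ cells from 10% Tet2+/+ BMT per the protocol, although the titles of both samples name CD45.2+CD11b+; gate and genotype cannot be told apart. Because each group is a single library, differences between groups have no replicate check and no p-value, and every interval is a 95% interval that covers counting error only.

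The libraries held 93919724 UMIs (10% Tet2-/- BMT) and 100782700 UMIs (10% Tet2+/+ BMT), and 9596 and 11672 cells were kept, with medians of 5920 and 5009 UMIs. The kept cells of both libraries shared 31 barcodes. Of 4361 and 5068 neutrophil-like cells, 1022 of 10% Tet2-/- BMT and 1 of 10% Tet2+/+ BMT carried Xist without a Y-linked transcript, and 175 and 2797 carried a Y-linked transcript without Xist, so the sex of most typed cells differs between the libraries together with genotype. The doublet caller Scrublet marked 0 cells of 10% Tet2-/- BMT and 346 cells (2.96%) of 10% Tet2+/+ BMT, so doublets remain. Clustering without the 9 genes gave 32 clusters, named by marker genes into classes such as "neutrophil-like", with 8 left unnamed. The neutrophil-like class was the most abundant, at 45.4% and 43.4% of kept cells. Unnamed clusters held 16.6% and 22.6%. Those led by Siglecf (5.09% and 13.3%), Ngp and Obp1a scored best for neutrophil markers, so the class share is not the share of all neutrophils.

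The start regions of Itgam, Itgb7 and Icam1 are shown because these genes carry the sort readout, the largest ratio between libraries in neutrophil-like cells and the one ratio past the threshold in a large unnamed cluster. Each is 300 bases from RefSeq on GRCm38.p6 (the mm10 build), from 250 bases before to 50 bases after the annotated start, 5′ to 3′ on the gene's strand; entries were found for 6 of the 9 genes. Capitals mark GAGGAA on either strand (TTCCTC on the printed strand), the core bound by PU.1 and related ETS factors of myeloid cells, in Itgam and Itgb7, and GGAAATTCC, a site of the NF-kB type, in Icam1.
Itgam, chr7:128062390-128062689, plus strand: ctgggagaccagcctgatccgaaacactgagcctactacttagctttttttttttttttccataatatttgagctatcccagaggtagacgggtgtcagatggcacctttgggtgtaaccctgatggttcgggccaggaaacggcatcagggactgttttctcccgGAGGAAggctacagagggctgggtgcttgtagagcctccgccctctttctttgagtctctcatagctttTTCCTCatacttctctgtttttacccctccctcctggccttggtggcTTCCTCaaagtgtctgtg
Itgb7, chr15:102231886-102232185, minus strand: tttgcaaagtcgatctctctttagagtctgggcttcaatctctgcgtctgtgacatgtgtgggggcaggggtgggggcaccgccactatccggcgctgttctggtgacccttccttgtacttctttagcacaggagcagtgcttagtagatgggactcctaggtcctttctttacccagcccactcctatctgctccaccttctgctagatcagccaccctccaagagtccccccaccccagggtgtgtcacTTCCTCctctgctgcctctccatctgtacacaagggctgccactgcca
Icam1, chr9:21015690-21015989, plus strand: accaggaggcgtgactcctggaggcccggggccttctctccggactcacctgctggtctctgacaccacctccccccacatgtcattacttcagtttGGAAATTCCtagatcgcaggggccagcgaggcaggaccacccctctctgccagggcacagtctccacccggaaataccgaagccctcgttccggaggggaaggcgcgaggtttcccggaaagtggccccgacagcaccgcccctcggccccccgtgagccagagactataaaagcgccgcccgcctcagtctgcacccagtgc
GAGGAA lies in 28.3% of 32851 such windows of all genes, and the Itgam window holds 3 matches, at 84 and 15 bases before the start and 32 bases after it. Itgb7 holds 1 match and Itgb1 another, and the windows of Itga4, Itgax and Icam1 hold none. GGAAATTCC lies in 0.317% of the windows and, among the 6 genes, in that of Icam1, 153 bases before the start. A match of letters is a description and says nothing on binding here. In mm10, Itgam spans chr7:128062640-128118491 and Itgax lies next to it at chr7:128129547-128150657 on the same strand, with Itgal on the same chromosome at chr7:127296260-127335138.

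Itgam was read in nearly every class of the sort, most in neutrophils. Levels are given as CPM, the UMIs of a gene per 1000000 UMIs of its class and library. Orders of classes are over the 9 named classes with at least 50 cells in each library, which leaves out osteoclast-like cells (33 and 24) and mast cell- or basophil-like cells (10 and 36). Neutrophil-like cells held Itgam at 598 CPM (588 to 609) in 10% Tet2-/- BMT and 573 CPM (564 to 583) in 10% Tet2+/+ BMT, and immature neutrophil-like cells at 533 and 568 CPM. The immature class joined a cluster led by Ltf, with Itgam at 971 and 845 CPM, and one led by Elane, at 323 and 273 CPM. Both clusters were thus higher in 10% Tet2-/- BMT while the class was lower. The cluster led by Elane held 49.3% and 33.9% of the class. Non-classical monocyte-like cells followed with 380 and 364 CPM, monocyte-like cells with 273 and 262 CPM and macrophage-like cells with 214 and 235 CPM. The order of these 5 classes was the same in both libraries, and only the intervals of the 2 neutrophil classes overlapped, in 10% Tet2+/+ BMT. The lowest levels of the 9 classes were 105 CPM in dendritic-like cells of 10% Tet2-/- BMT and 109 CPM in T cell-like cells of 10% Tet2+/+ BMT. The few osteoclast-like cells were lower, at 76.8 and 89.9 CPM.

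As a readout of the gate, cells were thinned to 500 UMIs each, so that depth could not set the share with an Itgam UMI. That share was 18.1% (17.3 to 18.9) of kept cells in 10% Tet2-/- BMT and 17.7% (17.0 to 18.4) in 10% Tet2+/+ BMT, and 76.1% and 72.7% without thinning. Over all kept cells Itgam was at 396 and 394 CPM, a ratio of 1.01 (0.992 to 1.02). Of the 9 genes this ratio was the closest to 1, followed by Icam1 at 0.972 (0.938 to 1.01) and Itga4 at 0.947 (0.926 to 0.969). Ptprc, which encodes CD45, was at 991 and 1117 CPM.

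Itgam was also read in the lymphoid cells of this CD11b+ sort. Whether their Itgam is background or their own was not tested. B cell-like cells made up 4.07% and 5.05% of kept cells, and the largest of their 3 clusters, led by Cd79a, held Itgam at 20.2 CPM (28 UMIs in 234 cells) in 10% Tet2-/- BMT and 20.9 CPM (44 UMIs in 384 cells) in 10% Tet2+/+ BMT. After thinning, 0.855% and 1.30% of its cells had an Itgam UMI, at median depths of 4626 and 4538 UMIs, against 22.2% and 22.8% of neutrophil-like cells, at 4117 and 4068 UMIs. This cluster thus had an Itgam UMI far less often than neutrophil-like cells of similar depth. The B cell-like cluster led by Ebf1 held Itgam at 298 and 305.5 CPM, together with S100a8, a neutrophil transcript, at 35287 and 41189 CPM, against 2088 and 2760 CPM in the cluster led by Cd79a. The third B cell-like cluster, led by Iglc2, held Itgam at 192 and 233 CPM with S100a8 at 6001 and 16269 CPM. Thinned shares with an Itgam UMI were 13.5% (7.17 to 22.4) and 12.3% (7.47 to 18.8) in the cluster led by Ebf1. In the one led by Iglc2 they were 11.8% (5.22 to 21.9) and 13.3% (5.94 to 24.6). These intervals, from 89 and 146 cells and from 68 and 60 cells, are too wide to compare the 2 clusters.

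T cell-like cells lay between, with an Itgam UMI in 5.69% and 5.72% of thinned cells. Their S100a8 stood at 6991 and 9563 CPM. Free RNA, read from barcodes of 1 to 50 UMIs, held 2.17 (2.01 to 2.34) Itgam UMIs per 1000 UMIs of S100a8 and S100a9 in 10% Tet2-/- BMT and 2.51 (2.32 to 2.70) in 10% Tet2+/+ BMT, and neutrophil-like cells 2.59 and 2.33. T cell-like cells held 6.66 (5.95 to 7.43) and 5.13 (4.67 to 5.63), above both. Barcodes with 51 to 200 UMIs held 4.66 (4.47 to 4.86) and 4.17 (4.02 to 4.32). Their S100a8 and S100a9 together stood at 89928 and 88692 CPM, against 131492 and 130674 CPM in barcodes of 1 to 50 UMIs. Whether the deeper barcodes held only free RNA was not tested. How much of the T cell-like Itgam comes from doublets, free RNA or the cells themselves was not tested.

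**Figure D1:**
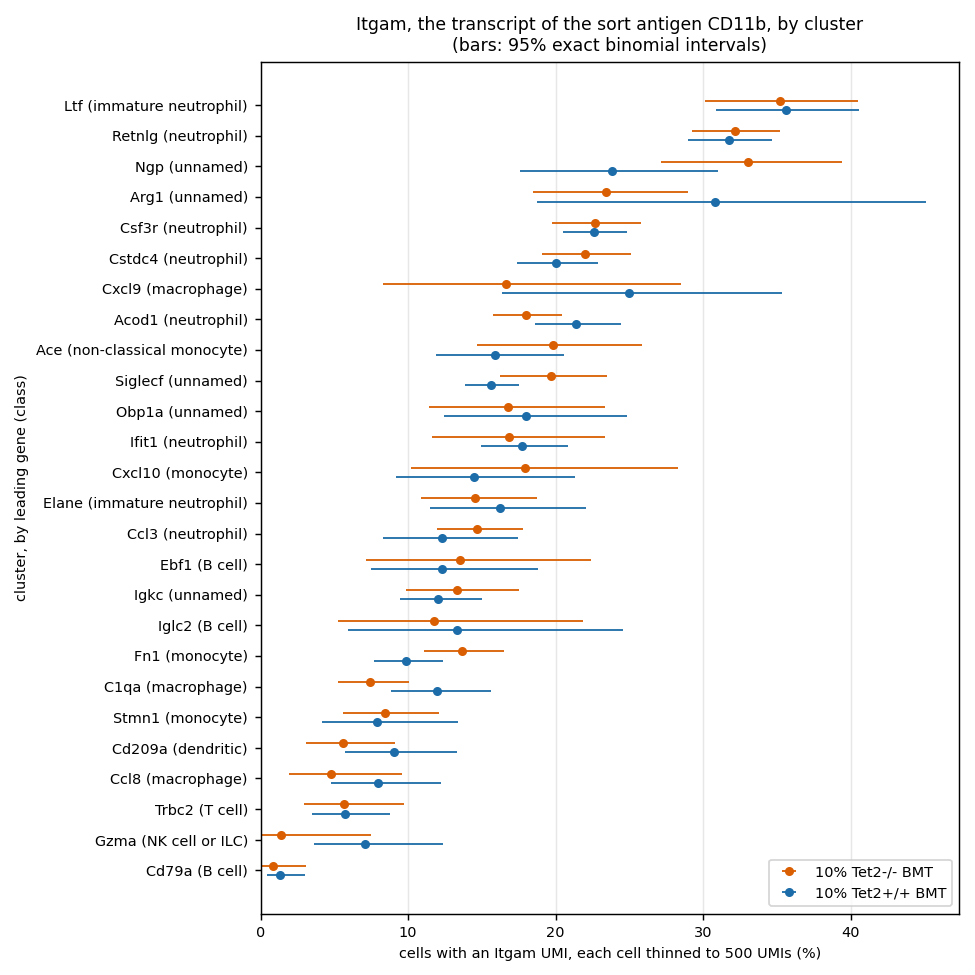
Percent of cells with an Itgam UMI after thinning each cell to 500 UMIs (x axis) for the clusters with at least 50 cells in both libraries (y axis, named by leading gene, class in parentheses), with exact binomial 95% intervals as bars. Neutrophil-like and immature neutrophil-like clusters led by Retnlg and Ltf sit above 30% in both libraries, and the B cell-like cluster led by Cd79a sits at 0.855% (10% Tet2-/- BMT) and 1.30% (10% Tet2+/+ BMT).

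Among the partners of CD11b, Itgb2, the shared β2 chain, was highest in non-classical monocyte-like cells, at 613 CPM (581 to 647) in 10% Tet2-/- BMT and 691 CPM (661 to 721) in 10% Tet2+/+ BMT. Neutrophil-like cells came next with 454 and 523 CPM. Itgal, the αL chain of LFA-1, also peaked in non-classical monocyte-like cells, at 750 and 791 CPM, with neutrophil-like cells at 253 and 279 CPM and dendritic-like cells at 41.9 and 44.7 CPM. Non-classical monocytes are known for patrolling vessel walls through LFA-1. Itgax, the αX chain used as a dendritic cell marker, was highest in dendritic-like cells, at 167 and 156 CPM, and lowest of the 9 classes in immature neutrophil-like cells, at 3.25 and 3.85 CPM. Osteoclast-like cells held 5.71 and 3.33 CPM of it.

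The α chain transcripts beside Itgb2 differed between classes. Per 100 Itgb2 UMIs, neutrophil-like cells held 132 Itgam UMIs in 10% Tet2-/- BMT and 110 in 10% Tet2+/+ BMT, but 55.6 and 53.3 Itgal UMIs and 6.19 and 5.75 Itgax UMIs. Non-classical monocyte-like cells held 61.9 and 52.6 Itgam UMIs and 122 and 114 Itgal UMIs. Dendritic-like cells held 82.3 and 62.2 Itgax UMIs and 51.8 and 62.7 Itgam UMIs. Such ratios compare classes for 1 pair of genes, since capture differs between genes.

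The α4 integrins were placed differently. Itga4 peaked in non-classical monocyte-like cells, at 798 CPM (761 to 837) in 10% Tet2-/- BMT and 654 CPM (626 to 684) in 10% Tet2+/+ BMT, and stood at 266 and 282 CPM in monocyte-like cells and 94.6 and 114 CPM in neutrophil-like cells. Itgb1, the β1 chain, was highest in NK cell- or ILC-like cells (444 and 398 CPM) with non-classical monocyte-like cells overlapping them (404 and 349 CPM), and lowest in neutrophil-like cells (22.1 and 27.0 CPM). Itgb7 was highest in monocyte-like cells of 10% Tet2-/- BMT, at 256 CPM against 198 CPM in dendritic-like cells, while in 10% Tet2+/+ BMT dendritic-like cells (226 CPM) and monocyte-like cells (214 CPM) had overlapping intervals. It was low in macrophage-like cells, at 20.5 and 15.2 CPM. Both an Itga4 and an Itgb7 UMI were found in 83.4% and 76.0% of monocyte-like cells, at median depths of 13825 and 12739 UMIs, and in 7.06% and 5.20% of macrophage-like cells, at shallower depths.

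Selplg and Icam1 serve opposite sides of the contact, as selectin ligand of the rolling cell and as a target of LFA-1 and Mac-1. Selplg was highest in NK cell- or ILC-like cells (507 and 593 CPM) and neutrophil-like cells (487 and 643 CPM), whose intervals overlapped in both libraries, and lowest in immature neutrophil-like cells (68.7 and 69.5 CPM). Icam1 was highest in NK cell- or ILC-like cells (169 and 134 CPM) and macrophage-like cells (123 and 115 CPM), and lowest in immature neutrophil-like cells (10.7 and 5.19 CPM). The antisense model Gm47079 overlaps Icam1, and Cerkl lies on the opposite strand over Itga4; the sources used here do not state the strand setting of the counting, so their values are uncertain to that extent.

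**Figure D2:**
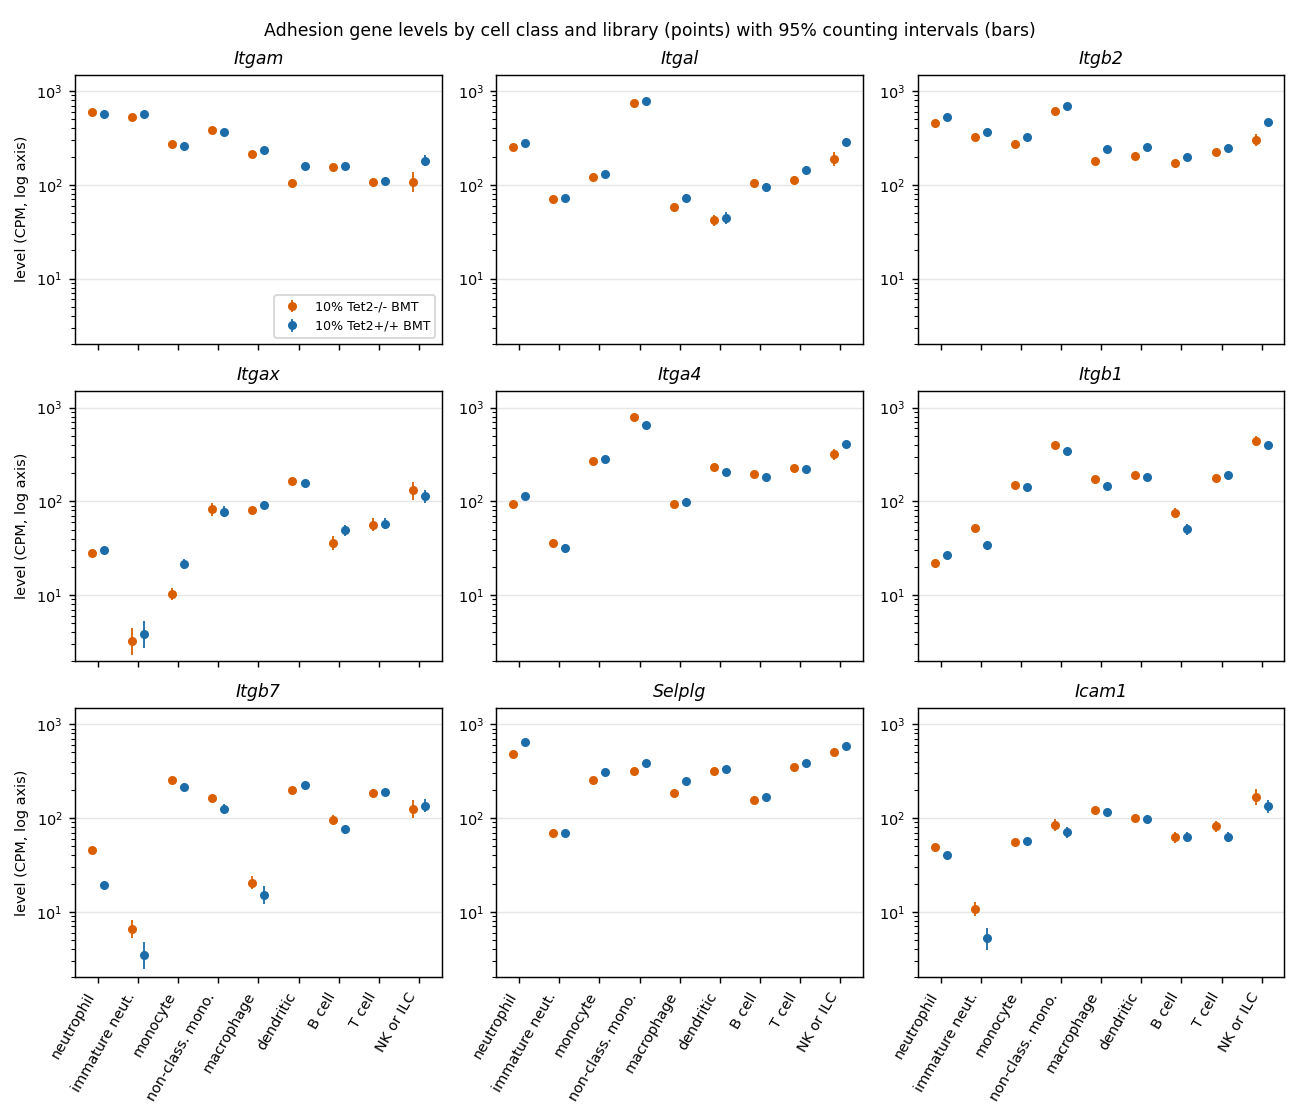
Level in CPM on a log axis (y axis) of each of the 9 genes in the 9 named classes with at least 50 cells in each library (x axis), for 10% Tet2-/- BMT (left point of each pair) and 10% Tet2+/+ BMT (right point), with 95% counting intervals as bars. The libraries lie close together for most pairs, and Itgb7 in neutrophil-like cells, at 45.1 against 19.1 CPM, is among the widest gaps.

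Over the 9 classes and both libraries (18 points), the members fell into patterns that are given as description only, since points of a library share its depth and free RNA and classes share a lineage. Itgal and Itgb2 ran together with a Pearson r of 0.83 on log2 levels, Itga4 and Itgb7 with 0.83 and Itgax and Icam1 with 0.88, while Itgam ran against Icam1 (-0.67). Of 4703 genes ranked, those most like Itgam were Hlx (0.95), Atp6v1e1 and Pgd (both 0.94). Those most like Icam1 were Arf4 (0.98), Gm17056 and Tgif1 (both 0.93), and those most like Itga4 were Dcaf11 (0.96), Prkx (0.94) and Itch (0.93). Itgal was most like Setd1b (0.95), Apbb1ip and Pitpnm1 (both 0.93), Itgb2 like Dock5 (0.94), Cbl (0.93) and Cdc42ep3 (0.90), and Itgax like Lpp (0.90), Arhgap18 (0.88) and Traf1 (0.87). Itgb1 was most like Ifngr1, Padi2 and Id2 (all 0.93), Itgb7 like Crybg1, Itpr1 (both 0.91) and Sub1 (0.90), and Selplg like Otud5 (0.95), Wipf1 (0.94) and Prex1 (0.92).

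The neutrophil-like class was not uniform. Its 6 clusters were led by Retnlg, Cstdc4, Csf3r, Acod1, Ifit1 and Ccl3, and the libraries filled them differently: the cluster led by Ccl3, a chemokine gene, held 13.9% of the class in 10% Tet2-/- BMT and 4.32% in 10% Tet2+/+ BMT, while that led by Ifit1, an interferon-induced gene, held 3.94% and 13.4%. Itgam was highest in the cluster led by Retnlg, a granulocyte transcript, at 896 CPM (874 to 918) and 824 CPM (805 to 843), and lowest in the cluster led by Ccl3, at 338 and 306 CPM. Icam1 ran the other way, with 4.75 and 3.63 CPM in the cluster led by Retnlg and 167 and 135 CPM in the one led by Ccl3. Clusters are built from the same cells, so these levels carry no test.

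Itga4 and Selplg were both highest in the cluster led by Csf3r, the receptor gene of the granulocyte growth factor G-CSF. Itga4 stood there at 328 and 281 CPM, against 16.4 and 15.1 CPM in the cluster led by Retnlg. Selplg stood at 856 and 1035 CPM in the cluster led by Csf3r. Its lowest level in 10% Tet2-/- BMT was that of the cluster led by Retnlg (246 CPM), whereas in 10% Tet2+/+ BMT it was that of the cluster led by Ccl3 (309 CPM).

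An unnamed cluster led by Siglecf, the gene of an eosinophil and activated-neutrophil lectin, held 488 and 1557 cells. Its best marker list was that of neutrophils, with Csf3r, Cxcr2 and 4 others detected, but it stayed unnamed because markers of another list stood among its 10 leading genes. It had the highest Itgax (193 and 209 CPM) and Icam1 (366 and 233 CPM) among the 7 clusters plotted, and Itgam at 424 and 374 CPM.

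**Figure D3:**
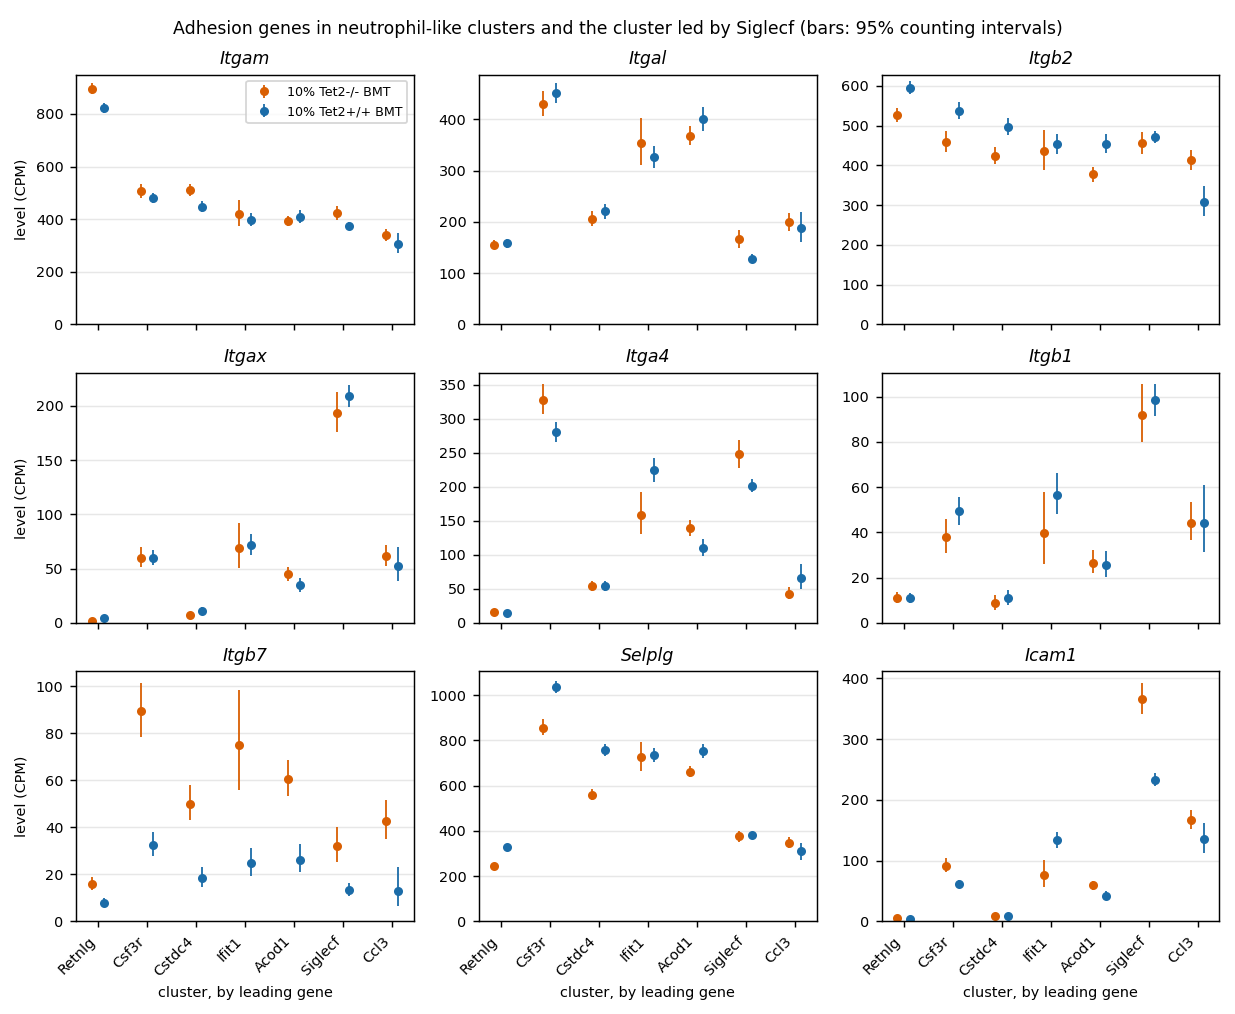
Level in CPM (y axis, from 0) of each of the 9 genes in the 6 neutrophil-like clusters and the unnamed cluster led by Siglecf (x axis, ordered by Itgam over both libraries), for 10% Tet2-/- BMT (left point) and 10% Tet2+/+ BMT (right point), with 95% counting intervals as bars. Itgam over both libraries declines along the axis by construction, Icam1 and Itgax are highest in the cluster led by Siglecf, and Itgb7 is higher in 10% Tet2-/- BMT in all 7.

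Between the libraries, members were set against a 1.5-fold threshold on log2(CPM + 10), for genes with 100 or more UMIs in all and a level of at least 50 CPM in one of the libraries. In neutrophil-like cells 5 of the 9 reached that level and 0 passed the threshold, where 4.81% of 2160 genes did. The counts were 0 of 8 in monocyte-like cells (3.49% of all genes), 0 of 8 in macrophage-like cells (1.38%) and 0 of 8 in dendritic-like cells (3.01%). They were also 0 of 5 in immature neutrophil-like (4.84%), 0 of 9 in non-classical monocyte-like (2.98%), 0 of 5 in osteoclast-like (4.52%), 0 of 8 in B cell-like (2.73%), 0 of 9 in T cell-like (2.87%) and 0 of 9 over all kept cells (3.15%). The members' median log2 ratio was -0.20 in neutrophil-like cells, -0.04 in monocyte-like, -0.14 in macrophage-like and -0.01 in dendritic-like cells, against -0.05, 0.05, 0.02 and -0.02 over all genes at that level. Against such background shares, a count of 0 among 5 or 8 genes is not a result about the members.

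Selplg had the lowest ratio of the 5 genes in neutrophil-like cells, 0.758 (0.739 to 0.777) of 10% Tet2-/- over 10% Tet2+/+ BMT. In macrophage-like cells, at 184 and 250 CPM, its ratio was 0.739 (0.685 to 0.796), and in dendritic-like cells 0.946 (0.881 to 1.02). Itgb2 showed ratios of 0.868 (0.845 to 0.891) in neutrophil-like, 0.840 (0.807 to 0.875) in monocyte-like, 0.741 (0.686 to 0.799) in macrophage-like and 0.809 (0.742 to 0.882) in dendritic-like cells. Selplg in monocyte-like cells stood at 251 and 312 CPM. Both genes thus had ratios below 1 in all 4 classes, under the threshold in each. Their size depended on the processing. The log2 ratio of Itgb2 ran from -0.33 (Y-carrying cells) to -0.04 (median-of-ratios scaling) in neutrophil-like cells. In dendritic-like cells it ran from -0.52 (thinning) to -0.03 (clustering resolution of 0.5). The libraries filled the monocyte-like clusters differently too, with 29.6% and 15.7% of the class in the one led by the cell-cycle gene Stmn1 and 7.51% and 14.98% in the one led by Cxcl10; with clusters weighted by pooled totals the monocyte-like log2 ratio of Itgb2 was -0.13, against -0.24. Selplg changed sign in monocyte-like cells between Y-carrying cells (log2 0.09, from 17 cells in 10% Tet2-/- BMT) and in dendritic-like cells after thinning (log2 0.40). The smallest of the 3 macrophage-like clusters, led by Cxcl9, carried S100a8 at 77584 and 83922 CPM; in the cluster led by C1qa, with 4526 and 6120 CPM, the ratios were 0.772 for Itgb2 and 0.800 for Selplg.

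Itgam in dendritic-like cells, at 105 (96.3 to 114) and 157 CPM (146 to 169), had a ratio of 0.668 (0.596 to 0.749), which with the pseudocount of 10 CPM falls just short of the threshold (log2 -0.54). At a clustering resolution of 0.5 it changed sign, to 0.18. In NK cell- or ILC-like cells, with 72 and 155 cells, 2 of 9 members were past the threshold and both lower in 10% Tet2-/- BMT, where 6.29% of all genes passed and 3.95% were lower. They were Itgam, at 108 and 181 CPM with a ratio of 0.596 (0.450 to 0.781), and Itgb2, at 303 and 465 CPM with a ratio of 0.651 (0.551 to 0.766). S100a8 stood at 9116 and 10174 CPM in these cells.

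**Figure D4:**
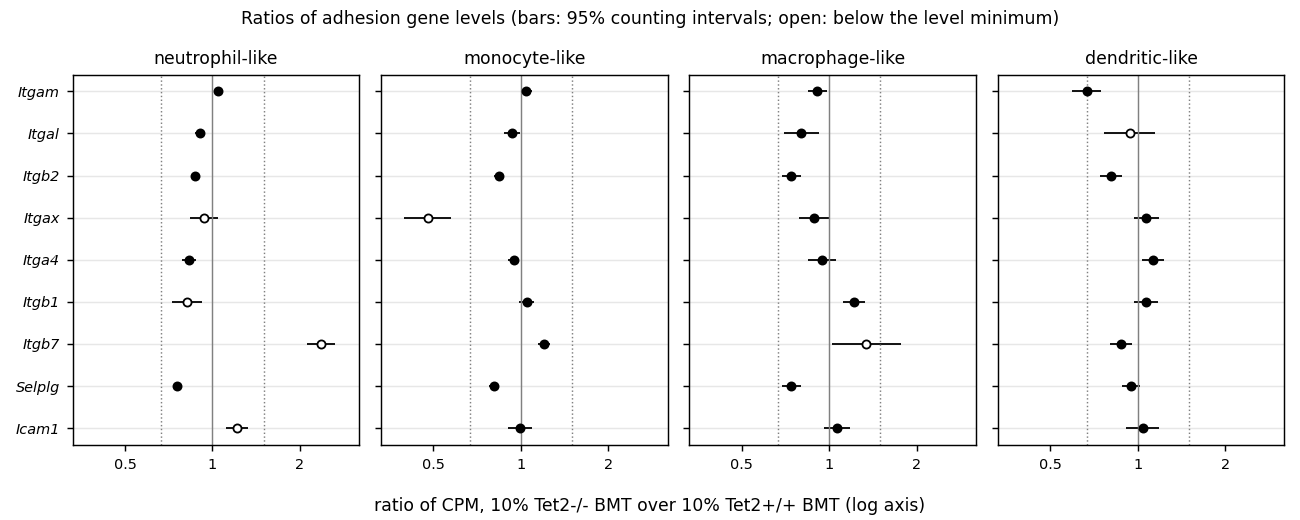
Ratio of CPM, 10% Tet2-/- BMT over 10% Tet2+/+ BMT, on a log axis (x axis) for the 9 genes (y axis) in 4 classes, with 95% counting intervals as bars, a solid line at 1 and dotted lines at 1.5-fold; open points mark genes under the level minimum. Itgb7 in neutrophil-like cells lies at 2.36 and Itgax in monocyte-like cells at 0.477, both open, and the filled points stay within the dotted lines.

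Itgb7 gave the largest ratio of the 9 genes in neutrophil-like cells and was kept out of the counts by its level. It was at 45.1 CPM (42.3 to 48.1; 947 UMIs) in 10% Tet2-/- BMT and 19.1 CPM (17.4 to 20.9; 473 UMIs) in 10% Tet2+/+ BMT, a ratio of 2.36 (2.11 to 2.64) and a log2 ratio of 0.92. An Itgb7 UMI was found in 16.9% and 7.97% of these cells, and in 7.74% and 4.67% of immature neutrophil-like cells, which are deeper, at 14096 and 14740 median UMIs. After thinning to 500 UMIs the neutrophil-like shares were 2.5% (2.06 to 3.01) and 1.03% (0.767 to 1.34). The ratio lay above 1 in each of the 6 neutrophil-like clusters, from 2.00 (1.48 to 2.73) in the one led by Retnlg to 3.34 (1.79 to 6.88) in the one led by Ccl3. It was 2.39 (1.75 to 3.25) in the cluster led by Siglecf, and with clusters weighted by their pooled totals, a setting chosen after seeing the data, the log2 ratio of the class was 1.02.

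In immature neutrophil-like cells Itgb7 was at 6.59 and 3.46 CPM, a ratio of 1.90 (1.27 to 2.91) whose interval overlaps that of neutrophil-like cells. The ratio was 1.34 (1.02 to 1.77) in macrophage-like and 1.30 (1.12 to 1.504) in non-classical monocyte-like cells. In monocyte-like cells it was at 256 and 214 CPM, a ratio of 1.20 (1.15 to 1.26), in T cell-like cells at 186 and 188 CPM, a ratio of 0.990 (0.886 to 1.10), and in dendritic-like cells at 198 and 226 CPM, a ratio of 0.877 (0.802 to 0.958). Whether the neutrophil-like ratio differs from these beyond the spread between mice was not tested, since each group is 1 library. Free RNA of barcodes with 1 to 50 UMIs held Itgb7 at 108 and 90.9 CPM, and that of barcodes with 51 to 200 UMIs at 130 and 78.7 CPM, higher in 10% Tet2-/- BMT as in neutrophil-like cells. With either subtracted the neutrophil-like log2 ratio was 1.05 and 1.03. The subtracted shares of UMIs were 3.82% and 4.83% (barcodes with 1 to 50 UMIs) and 5.58% and 7.12% (51 to 200 UMIs). They were set from S100a8 and S100a9 in B and T cell-like clusters. How much of the neutrophil-like Itgb7 comes from free RNA was not tested.

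Neutrophil-like cells typed by sex transcripts were deeper on average than those with neither transcript in each library. Depth and sex typing thus cannot be told apart between typed and untyped cells, which gave these values. In 10% Tet2-/- BMT Itgb7 was at 37.8 CPM (229 UMIs) in the 1022 Xist-carrying neutrophil-like cells, 25.9 CPM (16.9 to 38.0) in the 175 Y-carrying ones and 49.7 CPM (46.1 to 53.6) in the 3149 with neither transcript. In 10% Tet2+/+ BMT it was at 17.9 CPM (15.8 to 20.2) in the 2797 Y-carrying cells and 20.8 CPM (18.1 to 23.9) in the 2269 with neither. Between Y-carrying cells of both libraries the log2 ratio was 0.36, with overlapping intervals, and that comparison rests on 26 UMIs in 10% Tet2-/- BMT. In monocyte-like cells the direction turned between Y-carrying cells, with Itgb7 at 127 CPM (87.2 to 178) in 17 cells of 10% Tet2-/- BMT and 209 CPM (201 to 218) in 780 cells of 10% Tet2+/+ BMT (log2 -0.68). Itgam turned too, with log2 ratios between Y-carrying cells of -0.29 in neutrophil-like and -0.56 in monocyte-like cells, against 0.06 in each whole class. In neutrophil-like cells of 10% Tet2-/- BMT Itgam was at 744 CPM in Xist-carrying and 488 CPM in Y-carrying cells. Genotype and gate cannot be told apart in any of these comparisons, and outside the Y-carrying cells sex cannot be told apart from them either. Which of the Y-carrying cells descend from the 10% share is not known.

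Among the other unnamed clusters, one led by Igkc, with a median of 736 UMIs per cell, held Itgb7 at 129 and 41.4 CPM, a ratio of 3.11 (1.96 to 5.05). One led by Ngp, a granule gene of immature neutrophils, held it at 19.6 and 6.76 CPM, a ratio of 2.89 (1.65 to 5.36). The cluster led by Arg1, the arginase gene of some activated macrophages, held 269 and 52 cells and carried Itgax at 60.2 and 180 CPM, a ratio of 0.334 (0.261 to 0.429). Its Itga4 was at 84.2 and 43.8 CPM, a ratio of 1.92 (1.28 to 3.00). These clusters were singled out after their values were seen.

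**Figure D5:**
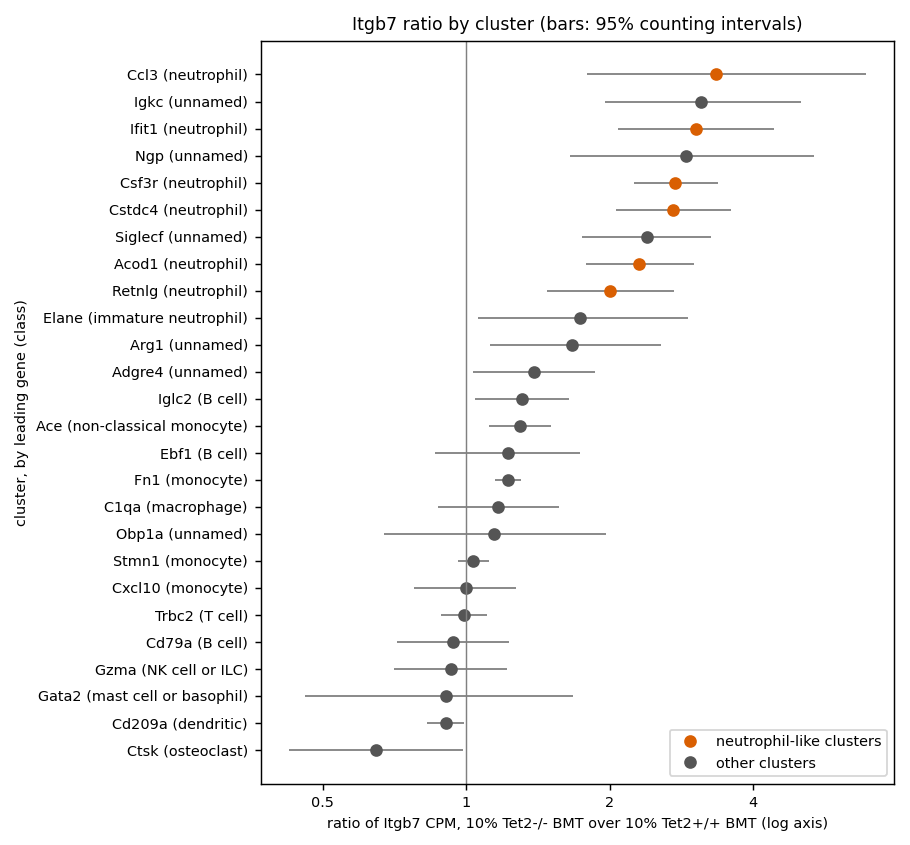
Ratio of Itgb7 CPM, 10% Tet2-/- BMT over 10% Tet2+/+ BMT, on a log axis (x axis) in each cluster with at least 50 Itgb7 UMIs over both libraries (y axis, by leading gene with class in parentheses), with 95% counting intervals as bars. The 6 neutrophil-like clusters (orange) lie between 2.00 and 3.34. The unnamed clusters led by Siglecf, Igkc and Ngp lie within the same range, and the T cell-like cluster led by Trbc2 lies at 0.990.

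Icam1 was the member past the threshold in the cluster led by Siglecf, at 366 CPM (342 to 392) in 10% Tet2-/- BMT and 233 CPM (222 to 244) in 10% Tet2+/+ BMT, a ratio of 1.57 (1.45 to 1.71). It was 1 of 8 members at the level minimum there, where 2.78% of 2987 genes were past the threshold and 1.67% were higher. This cluster was singled out after its values were seen. In neutrophil-like clusters the Icam1 ratio ran from 0.573 (0.420 to 0.767) in the one led by Ifit1 to 1.51 (1.27 to 1.79) in the one led by Csf3r. Itgax in monocyte-like cells, at 10.3 and 21.6 CPM and a ratio of 0.477 (0.395 to 0.575), was the other member past 1.5-fold below the level minimum in the 4 classes; between Y-carrying cells its log2 ratio was 0.01.

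Other genes of the adhesion machinery were read from 5 lists: other integrin subunits (19 genes), integrin activation and adaptor genes (25), selectins and selectin ligand synthesis (16), further adhesion receptors (18, of which 16 were in the files) and shedding proteases (5). In neutrophil-like cells 0, 21, 7, 2 and 2 of them reached the level minimum, and 0 passed the threshold there or in monocyte-like, macrophage-like or dendritic-like cells. Of all genes, 4.81%, 3.49%, 1.38% and 3.01% passed it in these classes, so a count of 0 is not a result about the lists. The median log2 ratio in neutrophil-like cells was -0.04 for activation and adaptor genes and 0.12 for selectins and their ligands, against -0.05 for all genes. Syk, the kinase downstream of integrins, was at 291 and 362 CPM, a ratio of 0.803 (0.777 to 0.829). Cd44, a hyaluronan receptor that also binds selectins, was at 1147 and 937 CPM, a ratio of 1.22 (1.20 to 1.25). The largest absolute log2 ratios of the 5 lists in the 4 classes were in monocyte-like cells, with Itga1, a collagen-binding integrin chain, at 82.0 and 53.0 CPM (log2 0.55) and Mmp9, the gelatinase that cleaves ICAM-1, at 68.8 and 105 CPM (log2 -0.54). In macrophage-like cells the selectin ligand Cd24a was at 64.2 and 97.9 CPM (log2 -0.54) and the Src-family kinase gene Fgr at 69.5 and 102 CPM (log2 -0.50), while Tln1, the talin that activates integrins, was at 408 and 332 CPM (log2 0.29). In dendritic-like cells Lyn, another Src-family kinase gene, was at 175 and 249 CPM (log2 -0.49).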

How the data were processed

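Gingival cells were profiled with the Chromium Single Cell 3' kit, version 3.1, per the labels' protocols. The authors deposited raw UMI counts per gene and barcode, empty barcodes included, made with Cell Ranger 6.1.2 on the mm10 build per the submitters' processing notes; the matrix header names Cell Ranger 4. The strand setting is not stated in these sources.

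Scrublet was run in scanpy 1.11.5. Kept cells were clustered on 2000 variable genes without the 9 members (30 principal components, 20 neighbours, Leiden resolution 1, leidenalg 0.10.2) and named from 18 marker lists. A name needed 3 markers, each in 10% of cells with a log2 excess of 0.5 (pseudocount 20 CPM). The 9 members, gene lists and thresholds were chosen with earlier results of these data known. UMIs were summed per class and library. Intervals, all at 95%, are exact Poisson for levels, conditional binomial (exact) for ratios and Clopper-Pearson for shares. Only the ratio intervals were tested on simulated data, which held counting error alone, in neutrophil-like, monocyte-like, macrophage-like and dendritic-like cells. Printed ratios carry no pseudocount. All 9 members are named; the other lists give up to 4 genes per class with the largest absolute log2 ratio, of which examples are printed, and the 3 most similar genes per member are named. The alternatives tried numbered 16, plus 1 added after seeing the data.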

Additional observations from a re-analysis of the deposited data

How the results depend on the processing

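No paired analysis was possible because each group is 1 library, and no replicate could be left out for the same reason. Of the log2 ratios of single members under the alternatives, 473 lay within the 95% interval of the value as reported and 130 outside it. In neutrophil-like cells 1 member passed the threshold, Itgb7 and higher in 10% Tet2-/- BMT, with the members among the variable genes, with median-of-ratios or TMM scaling, with the mean of per-cell CPM, with cells thinned to 500 UMIs and with a minimum of 10 CPM. When unnamed clusters scoring best for neutrophil markers were added to the class, 1 member passed, Itgax, and was lower. Median-of-ratios or TMM scaling moved the median of all genes in that class to 0.10 and the higher share of all called genes to 78.5%, against 51.9%. With those unnamed clusters added the higher share was 25.4%, and with clusters weighted by pooled totals 32.7%. Itgal changed sign to 0.02 under both scalings. Under the 17 alternatives Itgb7 stayed between 0.36 (Y-carrying cells) and 1.20 (pseudocount of 1 CPM). In monocyte-like cells 1 member was past it and lower with a minimum of 10 CPM (Itgax) and 1 with Y-carrying cells (Itgb7); in macrophage-like cells 2 with thinning (Itgam, Selplg) and 3 with Y-carrying cells (Itgam, Itgb2, Itga4), all lower; and in dendritic-like cells 1 (Itgam), lower, with free RNA of barcodes with 51 to 200 UMIs subtracted. The share of cells with an Itgam UMI was 76.1% (10% Tet2-/- BMT) and 72.7% (10% Tet2+/+ BMT) without thinning, and 18.4% (10% Tet2+/+ BMT) at a mitochondrial limit of 5%. The cause of these moves was not tested. The shares of all genes past the threshold under the alternatives are not given here. Counts of members past it under the alternatives are therefore not read as a result about the members. Y-carrying dendritic-like cells were too few for a value, and subtracting free RNA gives no share per cell, so neither was run. Weighting clusters by their pooled totals was chosen after seeing the data and left 0 members past the threshold in the 4 classes.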
